A study of Mus musculus with 9 samples.

Results

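RNA of primary mouse lung endothelial cells (MLEC) was examined for 38 genes that mark macrophages and other leukocytes. The genes form a fixed list of symbols, and they were chosen because such genes differ between the groups of the study. Their group differences are therefore given as a description without a test. Of the 38 symbols, 37 named a single locus among 37104 loci. Spi1, which encodes the myeloid transcription factor PU.1, is listed under its older symbol Sfpi1 (chr2:91082390-91115756) and is given beside the 37 genes, outside their counts. The unit is FPKM, the number of sequenced fragments scaled to the length of the transcript and to the depth of the library. An FPKM minimum of 2 in the mean of any group was met by 27 of the 37 genes and by 10605 genes in all, and those genes were fitted. The other 10 genes (Ptprc, Fyb, Itgam, Csf1r, Fcgr1, Fcgr2b, Ccl3, Ccl4, C1qa and C1qc) were described by their levels.

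Macrophages are phagocytes that live in every tissue, and the lung holds them in its air spaces and in the tissue around vessels and airways. They engulf particles with scavenger, Fc and lectin receptors, pass signals through adaptor proteins such as TYROBP and FCER1G, degrade what they take up with lysozyme and cathepsins, and call in other leukocytes with chemokines. Growth through the CSF1 receptor and the transcription factor PU.1 maintain the lineage. Cultures prepared from whole lung start from a mixture of all lung cells, and ICAM2, the surface protein used here for selection, is found on endothelial cells and also on many leukocytes.

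The mice were C57BL/6J adults of 10 to 12 weeks. ECtrl mice carried Cdh5-Cre with wild-type Jnk1 and Jnk2. EfCtrl mice had no Cre and carried LoxP sites in both alleles of Jnk1 and Jnk2. E3KO mice carried Cdh5-Cre together with the LoxP alleles of Jnk1 and Jnk2. All 3 groups lacked Jnk3 (Jnk3-/-), so no group was wild-type for the JNK kinases. The controls differ from each other in Cre and in the LoxP alleles together, and the parts of these factors in a difference between the controls cannot be told apart. Each group had 3 libraries, each from a separate isolation of pooled lungs that went through 2 rounds of magnetic selection with an ICAM2 antibody and several days of culture. Cre was driven by the promoter of Cdh5, the gene of VE-cadherin. In the embryo, blood cell precursors arise from endothelium that expresses Cdh5. The paper reports that hematopoietic cells of control and E3KO mice had similar JNK expression, from immunoblots of blood, spleen and bone marrow cells. Whether the leukocyte RNA of these cultured libraries came from cells with recombined alleles was not tested.

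The targeted genes were examined first. Mapk8 (Jnk1) was 17.0, 15.0 and 17.9 FPKM in ECtrl, 16.7, 14.0 and 15.1 in EfCtrl and 20.7, 8.77 and 4.65 in E3KO. The Mapk8 value of the library labelled E3KO replicate 1 lay above all 6 control libraries, whereas those of the other E3KO libraries lay below them. A level over the whole gene does not show which exons were read, so loss of the LoxP-flanked part was not tested. Mapk9 (Jnk2) was 44.1, 50.9 and 47.9 FPKM in ECtrl, 45.5, 42.7 and 47.9 in EfCtrl and 27.6, 35.1 and 20.7 in E3KO, and all 3 E3KO libraries were below all controls (difference of log2(FPKM + 1) from the mean of the controls -0.75 ± 0.15 (SE), limma with Benjamini-Hochberg adjustment, adjusted p = 0.036, 0.024 to 0.10 over 16 alternatives of which 12 lost the call). Mapk10 (Jnk3) did not exceed 0.270 in any library. Stab2, a gene outside the list, was 139, 106 and 126 FPKM in E3KO and 5.30 to 13.3 in the 6 control libraries. For Mapk9 and Stab2 the library labelled E3KO replicate 1 lay with its group, apart from the controls. It stood apart from the other libraries in its make-up. The 10 most abundant symbols held 96.4% of its summed FPKM beside 40.9 to 56.8% in the other libraries, while the sum over symbols averaging below 5000 FPKM lay between 388537 and 433172 in all 9. The endothelial identity of the cultures was clear from Cdh5, which ranged from 613 to 943 FPKM, and from Pecam1, which encodes the junctional protein PECAM1 and ranged from 643 to 798 FPKM. The FPKM tables carry no read counts, so no counting interval could be given for a level.

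The summed level of the 37 macrophage and leukocyte genes was lowest in ECtrl and highest in E3KO. It was 135, 341 and 279 FPKM in ECtrl (mean 252 ± 106 (SD), n = 3), 410, 576 and 330 FPKM in EfCtrl (439 ± 126) and 504, 582 and 700 FPKM in E3KO (595 ± 98.6). All 3 E3KO libraries were above the 3 ECtrl libraries, and E3KO and EfCtrl overlapped. These sums made up 0.0312 to 0.164% of the FPKM of all symbols that average below 5000 FPKM. Lyz2, the lysozyme gene of macrophages and neutrophils, held between 20.8 and 36.4% of the sum, and without it the order of the group means was the same (179 ± 64.0, 298 ± 82.1 and 407 ± 62.2 FPKM). In these bulk libraries, more cells of a type and more RNA per cell cannot be told apart. The summed level of 10 endothelial genes was 2858 to 3662 FPKM in ECtrl, 3328 to 3480 in EfCtrl and 3630 to 4049 in E3KO. This sum leans on Emcn, the most abundant of the 10, whose mean was 983 FPKM (ECtrl), 962 (EfCtrl) and 1495 (E3KO). The list as a whole did not rise. Its median difference of log2(FPKM + 1) between E3KO and the mean of the controls was 0.02, with 6 of 10 genes above 0.

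**Figure D1:**
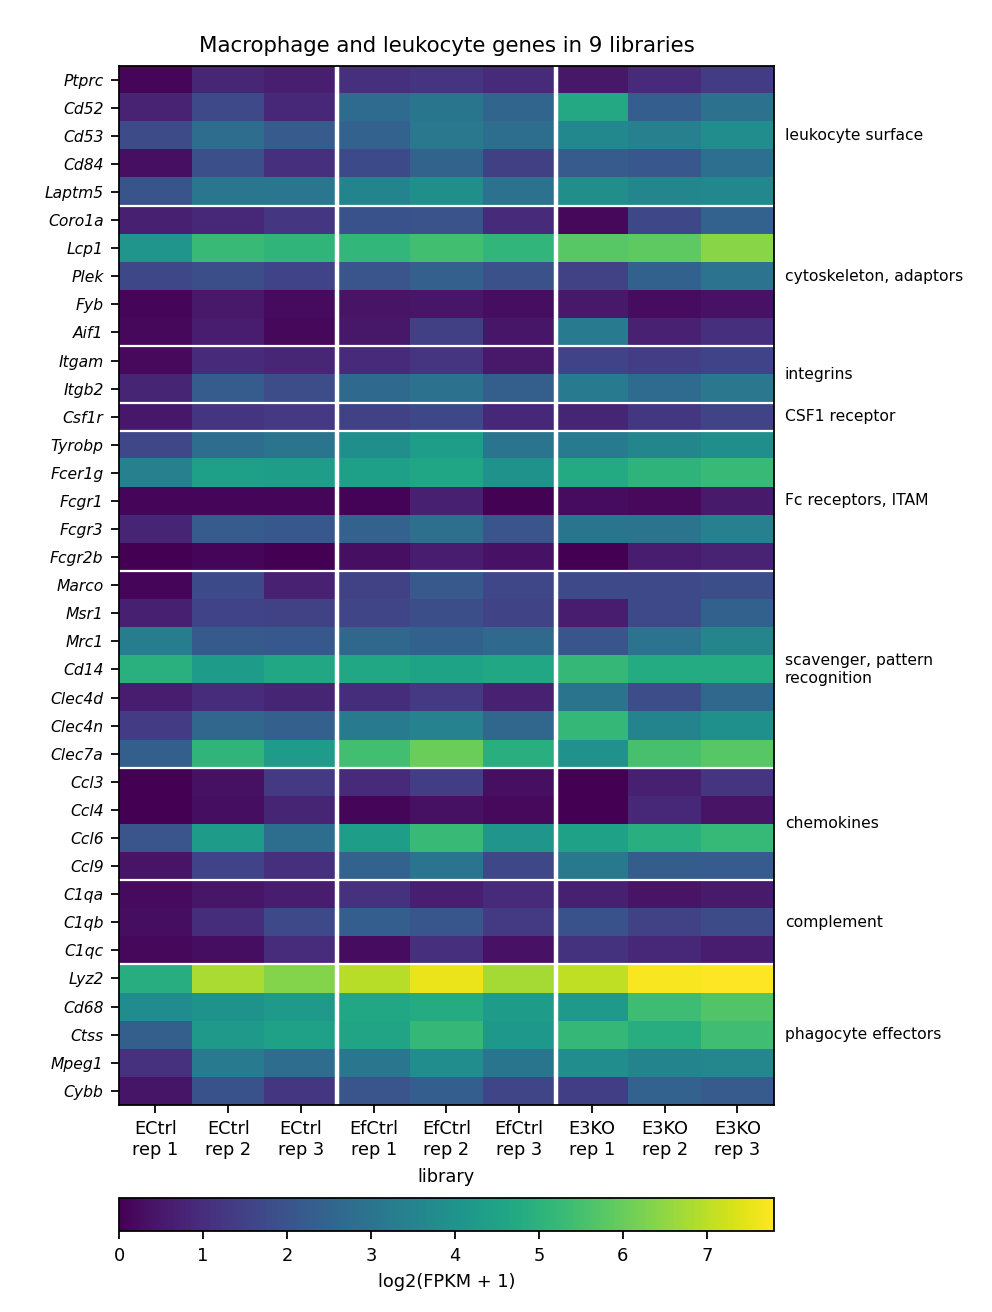
Heat map of log2(FPKM + 1) for the 37 genes (rows, grouped by role) in the 9 libraries (columns, 3 per group). ECtrl replicate 1 is the darkest column for most genes, Lyz2 is the brightest row, and the library labelled E3KO replicate 1 departs from its group at Cd52, Aif1, Clec4n and Clec7a.

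**Figure D2:**
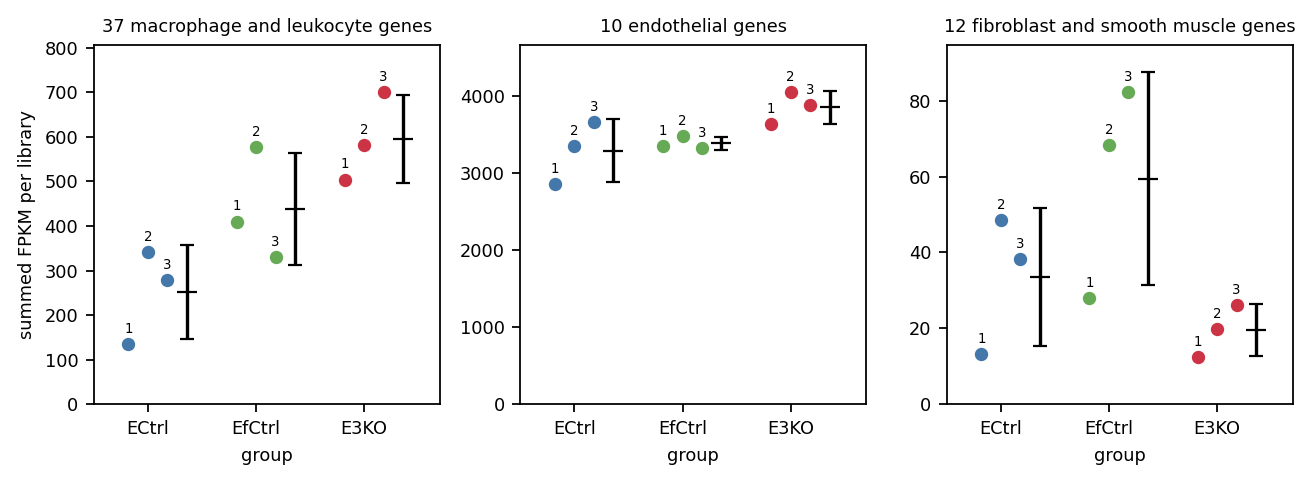
Summed FPKM per library (vertical axis, from 0) of the 37 macrophage and leukocyte genes, 10 endothelial genes and 12 fibroblast and smooth muscle genes in each group; points are libraries with their replicate number, and black bars are the mean with SD (n = 3). The macrophage and leukocyte sum runs from 135 to 341 in ECtrl and from 504 to 700 in E3KO, while the fibroblast and smooth muscle sum reaches 82.2 in EfCtrl and no more than 26.2 in E3KO.

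For each gene 2 differences were formed on the log2(FPKM + 1) scale, which understates the change of genes near 0. The first was E3KO minus the mean of both controls, and the second was EfCtrl minus ECtrl. Both use the same control libraries, so a low ECtrl library raises both differences. Over the 37 genes, the median of the first was 0.44, and 35 genes lay above 0. The median over all 10605 genes tested was -0.08. The median of the second was 0.53, again with 35 of 37 genes above 0, beside -0.01 over all genes. Against ECtrl alone the median difference of E3KO was 0.98, with 37 of 37 genes above 0. Against EfCtrl alone it was 0.29, with 26 of 37 above 0. The median difference between the 2 controls was as large as that between E3KO and their mean. The genes were selected on this pattern, and the counts describe them only.

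The limma fit over all genes called 1.54% of them higher in E3KO than in the controls, at an adjusted p under 0.05, and 4.80% in either direction. Among the calls were 2 of the 27 fitted genes, Cd53 and Clec4d, a count that only describes genes chosen for their differences and from which nothing is read. Clec4d and Aif1 met the FPKM minimum only through E3KO, the group in which they were highest. Cd53 was not called in 12 of 16 alternatives and Clec4d not in 4 of 16, and neither was called against EfCtrl alone, without EfCtrl replicate 3, without E3KO replicate 3 or with the replicate block. Without EfCtrl replicate 3 and without E3KO replicate 3 the calls over all genes numbered 101 and 9, and without the library labelled E3KO replicate 1 those among the list were Clec4d and Cd68. Between EfCtrl and ECtrl limma called 0% of all genes, and 195 of 10605 (1.84%) had an unadjusted p under 0.05. The fit shared its estimate of spread among the 3 groups, so the lack of calls does not show that the controls were alike. Every E3KO library lay above every control library for 7 of the 37 genes, Cd53, Lcp1, Itgam, Fcer1g, Fcgr3, Clec4d and Clec4n. Of the fitted genes 6 of 27 had this separation, beside 5.18% of all genes tested. Leaving out the library labelled E3KO replicate 1, the other 2 E3KO libraries lay above all controls for 11 of the 37 genes, Plek, Fcgr2b, Lyz2 and Cd68 being added. Of the fitted genes 9 of 27 (33.3%) had this separation, beside 10.5% of all genes tested. Every EfCtrl library lay above every ECtrl library for 11 of the 37 genes, of which 8 were fitted, beside 3.48% of all genes tested. Those 11 were Ptprc, Cd52, Plek, Itgb2, Tyrobp, Fcgr2b, Msr1, Clec4n, Ccl9, C1qa and Cd68. Clec4n was common to both sets.

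**Figure D3:**
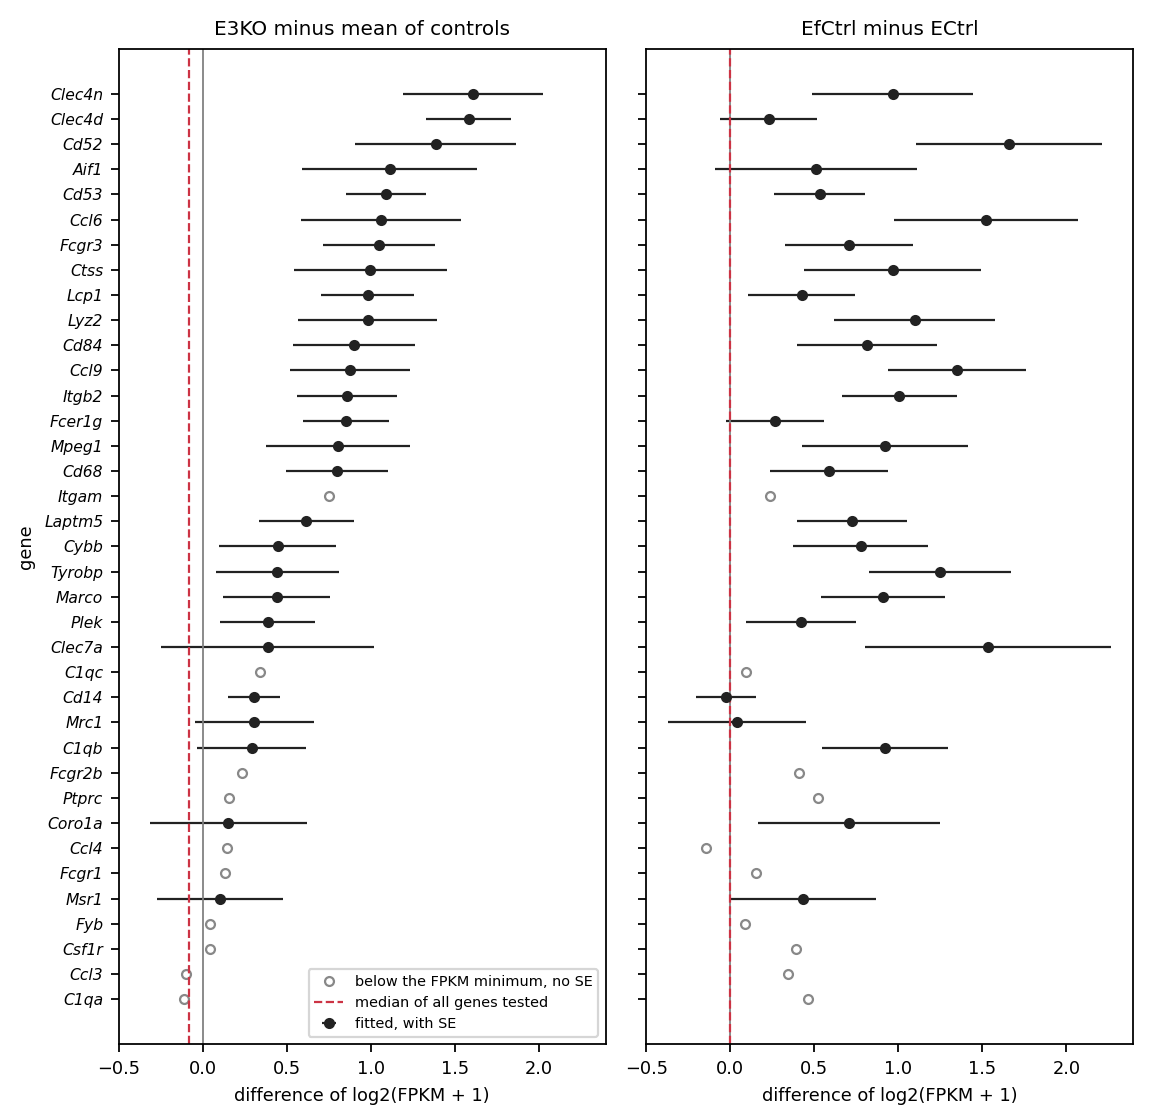
Difference of log2(FPKM + 1) for each of the 37 genes (rows, ordered by the left panel): E3KO minus the mean of the controls (left) and EfCtrl minus ECtrl (right). Filled points are fitted genes with the limma SE, open points are genes below the FPKM minimum, and the dashed line is the median of all genes tested (-0.08 and -0.01). Clec4n and Clec4d lead the left panel at 1.61 and 1.58, and Cd52, Clec7a and Ccl6 lead the right panel at 1.66, 1.53 and 1.52.

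Promoter windows are shown for genes whose E3KO libraries lay above all control libraries, because these genes carry the separation between E3KO and controls. The 250 bases before the annotated start were taken from RefSeq (GRCm38.p6, the build of the files) and were present for 28 of the 37 genes. They were searched on both strands for 2 forms of the purine-rich box that PU.1 binds. The longer, GAGGAAGT, was found in 1 of 28 genes (C1qc) and in 2.79% of the 27025 genes of the table. Its shorter core, GAGGAA, which every match to the longer form contains, was searched after that result had been seen. It was found in 18 of 28 genes (64.3%) and in 25.9% of all genes in the table. A match describes the letters of the window and is no evidence of binding. Capitals mark the core, written as TTCCTC where it lies on the other strand. The first base of the core was 39 bases before the start in Cd53, 240 in Clec4d, 15 in Fcgr3, and 84 and 15 in Itgam, and the windows of Fcer1g and Lcp1 held none. Clec4n was not among the 28 genes. For Fcgr3 and Lcp1 the window of 1 of 2 annotated starts is shown.
Cd53, chr3:106790150-106790399, minus strand: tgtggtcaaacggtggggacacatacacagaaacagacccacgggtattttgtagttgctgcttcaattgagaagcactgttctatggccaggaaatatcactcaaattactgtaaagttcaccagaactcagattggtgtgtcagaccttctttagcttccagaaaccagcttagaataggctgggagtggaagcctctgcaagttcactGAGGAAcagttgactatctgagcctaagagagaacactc
Clec4d, chr6:123261857-123262106, plus strand: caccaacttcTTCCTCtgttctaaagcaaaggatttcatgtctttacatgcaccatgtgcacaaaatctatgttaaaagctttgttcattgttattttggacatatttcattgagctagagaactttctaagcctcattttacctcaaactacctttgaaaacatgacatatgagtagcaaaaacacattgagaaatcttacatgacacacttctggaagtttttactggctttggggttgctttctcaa
Fcgr3, chr1:171059395-171059644, minus strand: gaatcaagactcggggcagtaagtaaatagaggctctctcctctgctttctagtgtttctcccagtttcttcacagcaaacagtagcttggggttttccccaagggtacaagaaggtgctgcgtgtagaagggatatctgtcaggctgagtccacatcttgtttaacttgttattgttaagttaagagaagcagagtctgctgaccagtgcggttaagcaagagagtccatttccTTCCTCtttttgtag
Itgam, chr7:128062390-128062639, plus strand: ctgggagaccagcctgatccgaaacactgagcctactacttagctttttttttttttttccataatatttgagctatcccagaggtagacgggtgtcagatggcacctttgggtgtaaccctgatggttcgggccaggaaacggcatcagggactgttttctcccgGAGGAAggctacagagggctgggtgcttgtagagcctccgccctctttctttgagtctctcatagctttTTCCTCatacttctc
Fcer1g, chr1:171234350-171234599, minus strand: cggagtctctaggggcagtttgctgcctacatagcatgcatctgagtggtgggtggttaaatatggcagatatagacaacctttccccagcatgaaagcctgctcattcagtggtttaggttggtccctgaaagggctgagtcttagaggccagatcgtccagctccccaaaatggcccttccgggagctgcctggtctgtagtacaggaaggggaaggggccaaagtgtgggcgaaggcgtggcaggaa
Lcp1, chr14:75130873-75131122, plus strand: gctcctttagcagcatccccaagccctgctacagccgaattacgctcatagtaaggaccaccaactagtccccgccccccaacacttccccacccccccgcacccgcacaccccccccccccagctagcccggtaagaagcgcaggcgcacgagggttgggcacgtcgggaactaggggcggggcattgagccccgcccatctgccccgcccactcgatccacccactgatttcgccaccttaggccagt

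Among the genes for membrane proteins of leukocytes in general (Ptprc, Cd52, Cd53, Cd84 and Laptm5), Laptm5 and Cd53 had the highest mean level. Laptm5 (chr4:130913125-130936141), a lysosomal membrane protein of blood cells, was 3.05, 7.40 and 7.36 FPKM in ECtrl, 10.4, 13.7 and 6.61 in EfCtrl and 13.6, 11.0 and 11.4 in E3KO. ECtrl replicate 1 was the lowest library, and the highest EfCtrl library was as high as any E3KO library. Cd53 (chr3:106758861-106790149), a tetraspanin of leukocytes, was 2.46, 5.89 and 3.70 FPKM in ECtrl, 4.42, 7.74 and 6.12 in EfCtrl and 11.6, 9.43 and 13.2 in E3KO. Its E3KO libraries were all above the controls (difference 1.09 ± 0.24, SE, and 1.07 without the library labelled E3KO replicate 1), and its controls overlapped (0.53 ± 0.27). Cd84, a receptor of the SLAM family on blood cells, ranged from 0.248 to 6.14 FPKM with differences of 0.90 ± 0.36 and 0.81 ± 0.42 in the 2 comparisons. Ptprc, which encodes CD45, the defining surface phosphatase of leukocytes, did not exceed 1.59 FPKM in any library, and its EfCtrl values of 0.914 to 1.23 lay above its ECtrl values of 0.0919 to 0.787.

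Cd52 (chr4:134065912-134095082), a small glycoprotein of lymphocytes and myeloid cells, was chosen for its values. It was 0.665, 2.27 and 0.841 FPKM in ECtrl, 5.64, 7.10 and 4.86 in EfCtrl and 25.2, 4.06 and 6.54 in E3KO. The library labelled E3KO replicate 1 was 4.76 times the mean of the other E3KO libraries, and the group difference fell from 1.38 ± 0.48 to 0.69 without it. EfCtrl lay wholly above ECtrl for this gene (1.66 ± 0.55). The locus overlaps the coding gene Crybg2, and the use of strand in counting is not given in the sources used here.

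Among genes of the leukocyte cytoskeleton and its adaptors, Lcp1 was the most abundant. Lcp1 (chr14:75131101-75230842) encodes L-plastin, an actin-bundling protein of blood cells. Its level was 15.8, 38.3 and 33.1 FPKM in ECtrl, 35.0, 42.0 and 34.1 in EfCtrl and 53.2, 56.9 and 84.2 in E3KO. The 3 E3KO libraries were above all controls (difference 0.98 ± 0.28), while EfCtrl and ECtrl overlapped (0.42 ± 0.32). Plek (chr11:16971206-17079371), which encodes pleckstrin, a protein kinase C substrate of platelets and leukocytes, was 2.22, 2.66 and 1.99 FPKM in ECtrl, 3.20, 4.19 and 2.85 in EfCtrl and 1.86, 4.36 and 6.90 in E3KO. The library labelled E3KO replicate 1 was the lowest of the 9, and the other E3KO libraries were the highest. Coro1a, which encodes the actin regulator coronin 1A, also had its lowest value in that library (0.127 FPKM, beside 2.24 and 4.42 in the other E3KO libraries). Its locus overlaps the coding gene Bola2, and that of Plek overlaps Cnrip1. Aif1, which encodes the macrophage protein IBA1, was 8.34 FPKM in that library and did not exceed 1.78 FPKM in the 8 others, so its difference of 1.11 ± 0.52 became 0.34 without it. Fyb, an adaptor of T cells and myeloid cells, did not exceed 0.440 FPKM in any library. The group values deposited for Fyb were more than 2 times the mean of its libraries, unlike those of other genes in the list, so its level is uncertain.

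The integrin chains Itgam and Itgb2 form the complement receptor CR3, also called Mac-1, on the surface of myeloid cells. Itgam (chr7:128062640-128128160) was 0.156, 0.897 and 0.770 FPKM in ECtrl, 0.901, 1.30 and 0.458 in EfCtrl and 1.98, 1.66 and 1.96 in E3KO. Its E3KO libraries were above all controls, at levels under the FPKM minimum, and its locus overlaps another annotated coding gene. Itgb2 (chr10:77530252-77565708), the beta chain shared by all leukocyte integrins, was 0.762, 3.79 and 2.59 FPKM in ECtrl, 5.31, 6.53 and 4.14 in EfCtrl and 8.03, 5.58 and 7.58 in E3KO. ECtrl lay below EfCtrl and E3KO, which overlapped (differences 0.86 ± 0.30 for E3KO and 1.00 ± 0.34 between the controls). Csf1r (chr18:61105572-61177050), the receptor for the macrophage growth factor CSF1, was 0.406, 1.26 and 1.46 FPKM in ECtrl, 1.92, 2.26 and 0.856 in EfCtrl and 0.737, 1.40 and 2.06 in E3KO. No group was separate for this gene, its difference between E3KO and the controls was 0.04, and its locus overlaps Hmgxb3. Sfpi1 (PU.1) was 0.325, 0.196 and 0.692 FPKM in ECtrl, 0.716, 1.39 and 0.642 in EfCtrl and 0, 1.17 and 0.358 in E3KO, and its highest values were in EfCtrl replicate 2 and E3KO replicate 2.

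Fc receptors bind the constant part of antibodies, and FCER1G and TYROBP are the adaptors that carry their signals and those of related receptors through ITAM motifs. Fcer1g (chr1:171229572-171234365) was 9.46, 20.2 and 19.6 FPKM in ECtrl, 20.1, 22.9 and 14.8 in EfCtrl and 26.5, 32.6 and 37.4 in E3KO. Its E3KO libraries were above all controls (difference 0.85 ± 0.25), and its controls overlapped (0.27 ± 0.29). Tyrobp (chr7:30413788-30417577) was 2.19, 5.97 and 6.99 FPKM in ECtrl, 13.7, 19.1 and 7.06 in EfCtrl and 8.28, 10.9 and 13.6 in E3KO. It parted from Fcer1g in the controls, where every EfCtrl library was above every ECtrl library (1.25 ± 0.42) and the highest value of all was in EfCtrl replicate 2 (E3KO minus controls 0.44 ± 0.37). The ratio of Fcer1g to Tyrobp was 2.80 to 4.31 in ECtrl, 1.20 to 2.09 in EfCtrl and 2.74 to 3.20 in E3KO.

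Fcgr3 (chr1:171051174-171064935), a low-affinity IgG receptor that needs FCER1G, was 0.766, 3.84 and 3.47 FPKM in ECtrl, 4.43, 6.32 and 3.16 in EfCtrl and 7.21, 7.05 and 9.58 in E3KO. All E3KO libraries were above all controls (1.05 ± 0.33), and leaving out the library labelled E3KO replicate 1 gave 1.10. The inhibitory IgG receptor Fcgr2b (chr1:170960558-170976547) was 0, 0.0703 and 0 FPKM in ECtrl, 0.258, 0.534 and 0.303 in EfCtrl and 0, 0.558 and 0.702 in E3KO. It was listed at 0 in 2 ECtrl libraries and in the library labelled E3KO replicate 1, and its levels in the remaining EfCtrl and E3KO libraries were between 0.258 and 0.702. Fcgr1 (chr3:96282909-96293969), the high-affinity IgG receptor typical of macrophages, was 0.0946, 0.0986 and 0.0805 FPKM in ECtrl, 0.0649, 0.615 and 0.0403 in EfCtrl and 0.186, 0.150 and 0.462 in E3KO. It stayed below 1 FPKM throughout, with its highest values in EfCtrl replicate 2 and E3KO replicate 3.

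Of the scavenger and pattern recognition receptors, Clec7a and Cd14 had the highest mean level. Clec7a (chr6:129461591-129472777), which encodes dectin-1, a receptor for fungal glucans, was 4.17, 33.5 and 18.9 FPKM in ECtrl, 42.8, 64.9 and 28.8 in EfCtrl and 14.5, 45.3 and 53.1 in E3KO. The lowest value was in ECtrl replicate 1, and the library labelled E3KO replicate 1 was below the other E3KO libraries and all EfCtrl libraries. The difference was 0.38 ± 0.63 with that library and 0.95 without it, and EfCtrl minus ECtrl was 1.53 ± 0.73. Cd14 (chr18:36725074-36726736), the co-receptor for bacterial lipopolysaccharide, was 29.8, 18.9 and 24.0 FPKM in ECtrl, 24.3, 22.0 and 24.0 in EfCtrl and 35.5, 26.5 and 27.1 in E3KO. Its values spanned less than those of the other fitted genes in the list (highest over lowest library 1.87), and ECtrl replicate 1, the lowest library for most of the genes, was the second highest for Cd14.

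The lectin receptors Clec4d and Clec4n lie beside each other on chromosome 6 and encode dectin-3 and dectin-2, which recognise fungal cell walls and signal through FCER1G. Both are described here after their values were seen. Clec4d (chr6:123262107-123275268) was 0.504, 0.996 and 0.732 FPKM in ECtrl, 1.04, 1.47 and 0.654 in EfCtrl and 6.92, 2.56 and 5.24 in E3KO. Every E3KO library was above 2.5 FPKM and every control was below 1.5 (difference 1.58 ± 0.25, and 1.33 without the library labelled E3KO replicate 1), while the controls overlapped (0.23 ± 0.29). Clec4n (chr6:123229843-123247021) was 1.61, 4.94 and 4.26 FPKM in ECtrl, 8.19, 10.1 and 4.96 in EfCtrl and 35.5, 10.3 and 14.2 in E3KO. The groups followed each other from ECtrl through EfCtrl to E3KO without overlap, and the library labelled E3KO replicate 1 was 2.90 times the mean of the other 2. In that library Clec4n was 2.44 times Clec7a, whereas in the 8 others the ratio was 0.147 to 0.385.

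The scavenger receptors Marco, Msr1 and the mannose receptor Mrc1 showed no separation of E3KO from the controls. Marco, typical of alveolar macrophages, did not exceed 3.51 FPKM, with differences of 0.44 ± 0.32 for E3KO and 0.91 ± 0.37 between the controls. Msr1 was 0.522 FPKM in the library labelled E3KO replicate 1 beside 2.28 and 4.35 in the other E3KO libraries. Mrc1 (chr2:14229414-14332057), which liver and lymphatic endothelium also express, was 8.57, 3.61 and 3.42 FPKM in ECtrl, 5.26, 4.32 and 5.34 in EfCtrl and 3.14, 6.83 and 10.8 in E3KO. Its second highest value was in ECtrl replicate 1, where the ratio of Mrc1 to Lyz2 was 0.306 beside 0.0227 to 0.0497 in the 8 others.

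Of the 4 chemokines, Ccl6 and Ccl9 were fitted and Ccl3 and Ccl4 were near 0. Ccl6 (chr11:83582056-83623693), a rodent chemokine of myeloid cells, was 3.18, 18.4 and 6.11 FPKM in ECtrl, 19.9, 38.2 and 15.6 in EfCtrl and 21.2, 29.4 and 36.4 in E3KO, and its difference was 1.06 ± 0.47 for E3KO and 1.52 ± 0.55 between the controls. Ccl9 (chr11:83572919-83578636), a neighbour of Ccl6 that also attracts myeloid cells, was 0.344, 1.96 and 1.14 FPKM in ECtrl, 4.45, 7.01 and 2.21 in EfCtrl and 7.88, 3.94 and 3.84 in E3KO. All EfCtrl libraries were above all ECtrl libraries for Ccl9 (1.35 ± 0.41), and E3KO overlapped with EfCtrl. Ccl3 (chr11:83647844-83649355), an inflammatory chemokine of macrophages, was 0, 0.264 and 1.52 FPKM in ECtrl, 0.956, 1.69 and 0.240 in EfCtrl and 0, 0.616 and 1.29 in E3KO. Ccl4 (chr11:83662584-83664683), its relative, was 0, 0.227 and 0.759 FPKM in ECtrl, 0.0738, 0.287 and 0.153 in EfCtrl and 0, 0.868 and 0.326 in E3KO. Both were listed at 0 in ECtrl replicate 1 and in the library labelled E3KO replicate 1, and the groups overlapped for both.

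The 3 chains of C1q start the classical complement pathway and are made by tissue macrophages. C1qb (chr4:136880129-136886187) was 0.210, 1.02 and 2.26 FPKM in ECtrl, 4.03, 3.29 and 1.52 in EfCtrl and 2.89, 1.86 and 2.41 in E3KO and C1qa (chr4:136895917-136898803) was 0.182, 0.390 and 0.539 FPKM in ECtrl, 1.17, 0.576 and 0.925 in EfCtrl and 0.623, 0.333 and 0.491 in E3KO. C1qc (chr4:136889804-136893065) was 0.121, 0.226 and 0.986 FPKM in ECtrl, 0.209, 1.08 and 0.310 in EfCtrl and 1.21, 0.830 and 0.496 in E3KO. All 3 were low, and their E3KO libraries lay within the range of the controls or close to it. C1qa was higher in every EfCtrl library than in every ECtrl library, and its E3KO values lay between these groups' extremes. The ratio of C1qb to Tyrobp ranged from 0.0960 in ECtrl replicate 1 to 0.349 in the library labelled E3KO replicate 1.

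Phagocyte effectors were the most abundant genes of the list. Lyz2 (chr10:117277334-117282274) was 28.0, 111 and 80.5 FPKM in ECtrl, 123, 191 and 107 in EfCtrl and 133, 212 and 221 in E3KO. ECtrl had the lowest library and E3KO the 2 highest, and the library labelled E3KO replicate 1 lay among the EfCtrl libraries (difference 0.98 ± 0.42, and 1.21 without it; between the controls 1.10 ± 0.48). Cd68 (chr11:69664213-69666153), a lysosomal membrane glycoprotein of macrophages, was 12.8, 14.7 and 17.8 FPKM in ECtrl, 24.6, 26.8 and 18.4 in EfCtrl and 17.6, 40.3 and 50.6 in E3KO. EfCtrl was above ECtrl in every library, 2 E3KO libraries were the highest of the 9, and the library labelled E3KO replicate 1 was within the ECtrl range (difference 0.80 ± 0.30, and 1.24 without it). Ctss, a lysosomal protease that trims the invariant chain of MHC class II, Mpeg1, the pore-forming perforin-2, and Cybb, the catalytic subunit of the phagocyte NADPH oxidase, had differences of 1.00 ± 0.46, 0.80 ± 0.43 and 0.44 ± 0.35 for E3KO and of 0.96 ± 0.53, 0.92 ± 0.49 and 0.77 ± 0.40 between the controls. Each of the 3 was lowest in ECtrl replicate 1.

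Whether the genes moved together from library to library was described within groups, which the choice of the genes did not use. For each gene the group mean of log2(FPKM + 1) was subtracted, and the 9 remainders were correlated with the mean remainder of the other 36 genes. The median Pearson r was 0.68, 25 of 37 genes were above 0.5 and 16 of 37 (43.2%) were above 0.8. Among the 10578 other genes tested, the median r with the mean of the 37 genes was -0.04, and 1.80% were above 0.8. The points share their library and its scaling, 9 libraries in 3 groups leave few independent points, and no p is given. Fcgr3 (0.98), Fcer1g (0.96), Itgam (0.95), Cd84 (0.94), Tyrobp (0.94), Ctss (0.93) and Lyz2 (0.93) had the highest r. Of these, Fcgr3, Fcer1g and Tyrobp share the role of Fc receptors and ITAM adaptors, and Ctss and Lyz2 that of phagocyte effectors. Fcgr3, Fcer1g and Cd84 lie on chromosome 1, Itgam and Tyrobp on 7, Ctss on 3 and Lyz2 on 10.

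**Figure D4:**
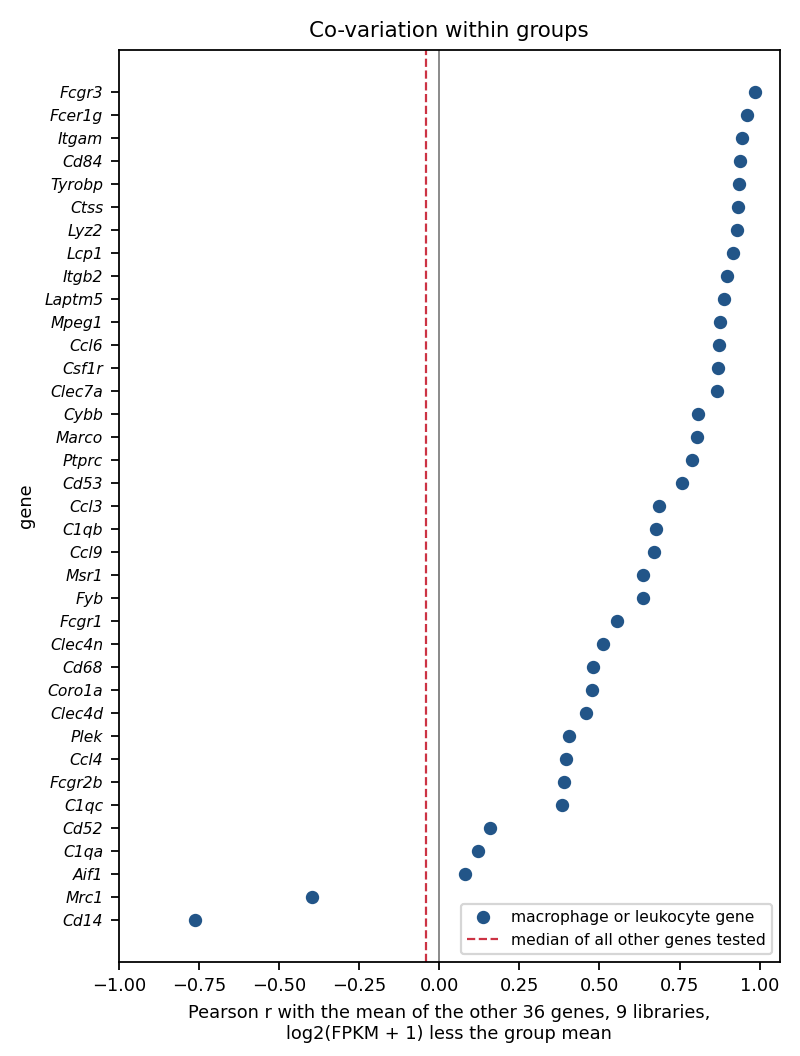
Pearson r of each of the 37 genes (rows) with the mean of the other 36 over the 9 libraries, from log2(FPKM + 1) less the group mean (horizontal axis). Most genes lie above 0.5, Mrc1 and Cd14 lie below 0, and the dashed line is the median of all other genes tested (-0.04).

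Within each control group, most of the genes shared an extreme library. ECtrl replicate 1 was the lowest ECtrl library for 32 of 37 genes, beside 29.4% of all genes tested. EfCtrl replicate 2 was the highest EfCtrl library for 33 of 37 genes and EfCtrl replicate 3 the lowest for 29 of 37, beside 27.0% and 32.0% of all genes tested. In E3KO, replicate 3 was the highest library for 21 of 37 genes, beside 28.1% of all genes tested. The library labelled E3KO replicate 1 was the lowest E3KO library for 18 of 37 genes (48.6%) and the highest for 14 (37.8%), close to the 53.7% and 33.5% of all genes tested.

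Against the mean of the other E3KO libraries, the library labelled E3KO replicate 1 was at least 2 times higher for 4 of 37 genes (Cd52, Aif1, Clec4n and Ccl9) and at most 0.5 times as high for 12 of 37. The 12 were Ptprc, Coro1a, Plek, Csf1r, Fcgr2b, Msr1, Mrc1, Clec7a, Ccl3, Ccl4, Cd68 and Cybb. Among all genes tested, 6.36% were at least 2 times higher and 11.6% at most 0.5 times as high in that library. Without it, from 8 libraries, the median r of the 37 genes was 0.86, with 32 genes above 0.5 and 21 (56.8%) above 0.8, beside 4.06% of the other genes. Clec4n then went from 0.51 to 0.99, Cd52 from 0.16 to 0.78, Aif1 from 0.08 to 0.69 and Clec4d from 0.46 to 0.76.

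Cd14 and Mrc1 departed from the other genes with and without that library. Their r was -0.76 and -0.40 over 9 libraries and -0.82 and -0.70 over 8. Both were high in ECtrl replicate 1, where most of the genes were lowest. Ratios between genes were also compared from library to library. The ratio of Ctss to Lyz2 stayed between 0.133 and 0.265, a range of 2.00 times. The ratio of Fcgr3 to Fcer1g spanned 3.41 times, that of Ccl6 to Ccl9 3.52 times, that of Cd14 to Lyz2 9.19 times, that of Mrc1 to Lyz2 13.5 times and that of Clec4n to Clec7a 16.6 times. What set these ratios was not tested.

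**Figure D5:**
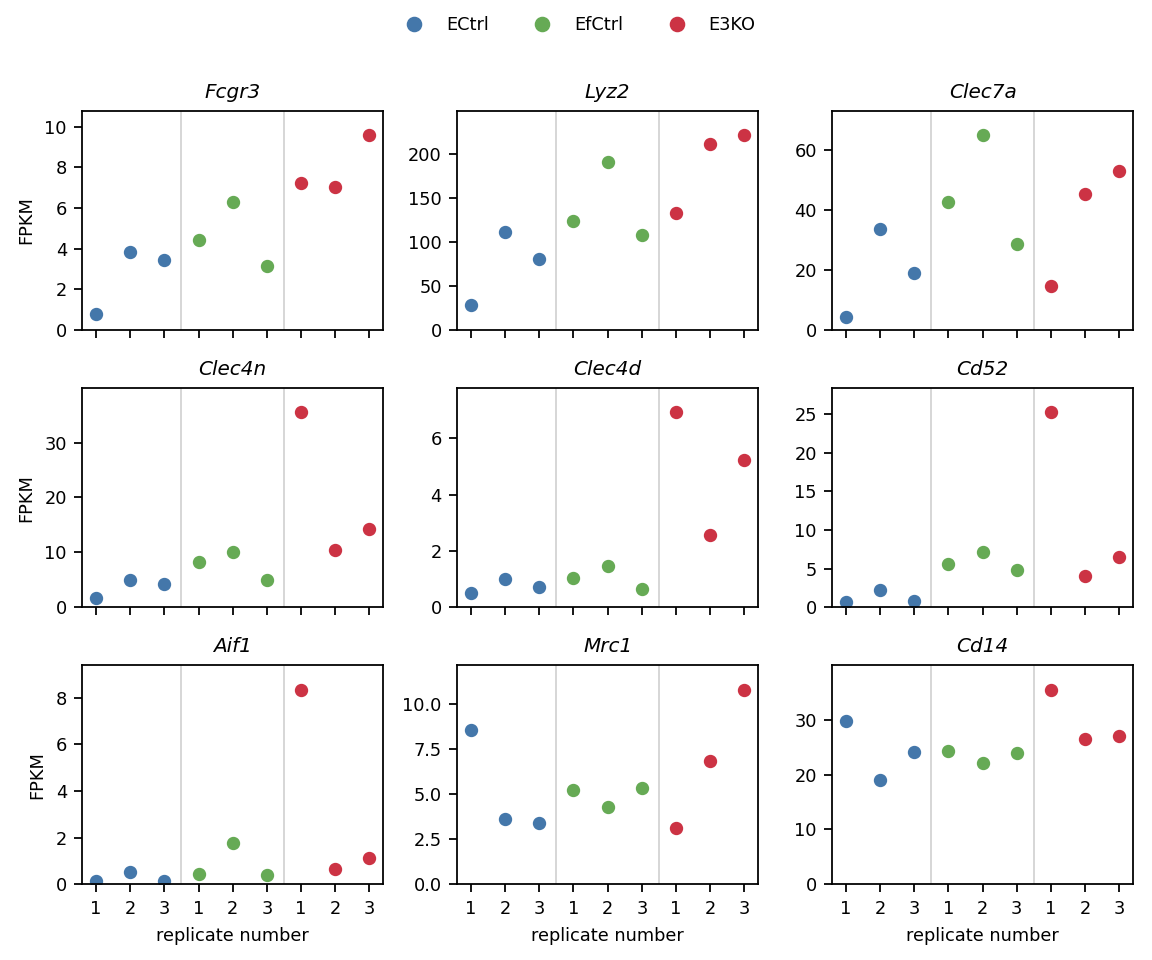
FPKM (vertical axes, from 0) of 9 genes in each library (points, coloured by group, replicate number below). Fcgr3, Lyz2 and Clec7a are lowest in ECtrl replicate 1 and high in EfCtrl replicate 2; Clec4n, Clec4d, Cd52 and Aif1 are highest in the library labelled E3KO replicate 1, where Clec7a falls to 14.5; Mrc1 and Cd14 are high in ECtrl replicate 1.

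Further marker genes, none of them among the 37, were taken from fixed lists that were chosen with earlier results of these data known. Counts of calls in these lists only describe them. They stand beside 1.54% of all genes called higher in E3KO and 4.80% called in either direction. In a list of 20 leukocyte signalling and cytoskeleton genes, 9 were fitted and 0 were called by limma in either comparison. The median differences were 0.18 and 0.14 over the 20 genes. Arhgdib (135 to 199.7 FPKM), which encodes a regulator of small GTPases, and Gmfg (45.4 to 85.6), which encodes an actin regulator, were abundant in all libraries. Their within-group r with the 37 genes was -0.63 and -0.81, beside a median of 0.58 over the 9 fitted genes. Inpp5d, the lipid phosphatase SHIP1, ranged from 13.3 to 30.3 FPKM (E3KO minus controls 0.53 ± 0.16, adjusted p = 0.0991, limma). Of 30 macrophage and monocyte genes, 28 were matched, 10 were fitted and 0 were called. The median differences over the 28 were 0.10 for E3KO minus the controls and 0.12 between the controls. Over the 10 fitted genes they were 0.27 and 0.08. The other 18 genes were below the FPKM minimum, where the log2(FPKM + 1) scale understates change, so these medians are not set against those of the 37 genes. Sirpa, Mertk and Tlr4, the 3 highest, ranged from 20.9 to 35.6, 11.8 to 19.9 and 6.14 to 29.1 FPKM. Adgre1, listed as Emr1, encodes the macrophage marker F4/80 and was 0.198, 0.513 and 0.625 FPKM in ECtrl, 0.847, 1.42 and 0.729 in EfCtrl and 0.0493, 1.03 and 1.07 in E3KO. The highest value lay in EfCtrl and the lowest in the library labelled E3KO replicate 1, where Tlr7 stood at 36.4 FPKM beside no more than 2.29 in the 8 others.

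Of 12 genes typical of alveolar macrophages, 7 were fitted and 1, Pparg, rose in E3KO (difference 0.54 ± 0.12, adjusted p = 0.0495, limma, 0.0416 to 0.127 over 16 alternatives of which 13 lost the call). The median differences over the 12 genes were 0.07 for E3KO minus the controls and 0.07 between the controls. Over the 7 fitted genes they were 0.11 and 0.94, and the other 5 genes were below the FPKM minimum. Between the controls Chil3, Mmp12, Plet1 (listed as 1600029D21Rik) and Itgax differed by 1.77, 1.10, 1.07 and 0.94. Fabp4, Fabp5 and Pparg differed by -0.15, -0.08 and -0.02. Pparg encodes a nuclear receptor that endothelial cells also express, and its within-group r with the 37 genes was -0.21. Fabp4 (1853 to 2616 FPKM) and Fabp5 (65.2 to 144), fatty acid binding proteins, are made by endothelial cells too, and their within-group r was -0.85 and -0.23. Mmp12, the macrophage elastase, was 9.97, 42.6 and 56.1 FPKM in ECtrl, 53.3, 90.5 and 53.2 in EfCtrl and 56.3, 73.9 and 110.1 in E3KO, and it followed the 37 genes within groups (r 0.91, difference 0.82 ± 0.50, adjusted p = 0.346). Chil3, listed as Chi3l3, was 36.7 FPKM in EfCtrl replicate 1 and no more than 1.43 in the 8 others.

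Of 15 genes of lipid-handling and activated macrophages, 7 were fitted and 2 were called higher in E3KO, Apoe (1.06 ± 0.18, adjusted p = 0.0216, 0.0173 to 0.0944 over 16 alternatives) and Lgals3 (1.03 ± 0.17, adjusted p = 0.0185, 0.0117 to 0.0861, both limma). Each lost the call in 5 of the 16 alternatives, and the count of 2 stands beside 1.54% of all genes called higher. Apoe, the apolipoprotein of macrophages, was 0.868, 1.32 and 1.64 FPKM in ECtrl, 2.03, 2.10 and 1.65 in EfCtrl and 3.07, 4.38 and 5.90 in E3KO, and all E3KO libraries were above all controls. It met the FPKM minimum only through E3KO (group means 1.27, 1.93 and 4.45 FPKM), so its entry into the test was decided by the group in which it was high, and with no filter on low values its adjusted p was 0.0418 (limma). Lgals3, which encodes galectin-3, was 31.2, 34.7 and 45.7 FPKM in ECtrl, 42.8, 62.1 and 42.2 in EfCtrl and 90.4, 78.4 and 92.4 in E3KO, with the same separation. Gpnmb (67.0 to 105 FPKM), Spp1, which encodes osteopontin (22.3 to 99.3), and Lpl, lipoprotein lipase (2.21 to 14.3), were not called. The medians over the 15 genes were 0.21 for E3KO minus the controls and 0.34 between the controls. Over the 7 fitted genes they were 0.73 and 0.38.

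Few markers of other leukocytes reached the FPKM minimum. Of 10 neutrophil genes, 1 was fitted and 0 were called, and S100a8, a calcium-binding protein of neutrophils and monocytes, was 1.29, 4.52 and 1.19 FPKM in ECtrl, 5.68, 6.24 and 5.51 in EfCtrl and 0, 9.88 and 14.3 in E3KO. In E3KO replicate 3 S100a8 was above Laptm5 and Cd53 of the list of 37. By contrast, Mmp8 and S100a9, the next neutrophil genes in level, reached at most 0.923 and 1.34 FPKM. Of 12 T and NK cell genes, 6 (Cd3e, Cd3g, Cd8a, Nkg7, Gzma and Ncr1) were at 0 in all 9 libraries, and Lck, a T cell kinase, ranged from 0.584 to 7.33 FPKM (adjusted p = 0.348, limma), while Cd2 and Klrb1c, the next in level, reached at most 0.504 and 0.243. The B cell gene Ms4a1 was at 0 throughout, and the 8 genes of that list, led by Cd79a, Cd22 and Vpreb3, summed to at most 0.633 FPKM in a library. The sums were at most 3.57 FPKM for 8 dendritic cell genes, led by Zbtb46, Clec9a (1 locus with Clec1b in the files) and Flt3, and 3.23 for 8 mast cell and basophil genes, led by Hdc, Mcpt8 and Cpa3. The sum of 8 platelet and megakaryocyte genes was at most 6.75 FPKM, with Gp1bb (1 locus with Sept5), Pf4 and Itga2b as the highest. Of these last 4 lists 2 genes were fitted, both of platelets, and 0 were called. The 6 erythroid genes, led by Klf1 and Alas2, summed to at most 0.308 FPKM.

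The 12 fibroblast and smooth muscle genes did not follow the order of the groups seen for the macrophage and leukocyte genes. Their sum was 13.3 to 48.6 FPKM in ECtrl, 28.0 to 82.2 in EfCtrl and 12.5 to 26.2 in E3KO. Of 6 fitted genes 0 were called. Acta2, the smooth muscle actin, was 4.31, 19.4 and 15.6 FPKM in ECtrl, 11.6, 28.1 and 35.1 in EfCtrl and 4.49, 6.32 and 5.74 in E3KO (E3KO minus controls -1.39 ± 0.47, adjusted p = 0.129, limma), and Tagln and Dcn ranged from 3.07 to 18.8 and 1.47 to 7.69 FPKM. Of 10 lung epithelial genes, 2 were fitted and 0 were called. Scgb1a1, the secretory protein of club cells, was 46.2 FPKM in the library labelled E3KO replicate 1 and no more than 1.87 in the 8 others, and the keratin gene Krt18 and the alveolar gene Ager reached at most 3.99 and 0.756 FPKM. Of the 10 endothelial genes, Emcn, a sialomucin of veins and capillaries (822 to 1557 FPKM), rose in E3KO (0.63 ± 0.12, adjusted p = 0.026, limma, 0.0175 to 0.0948 over 16 alternatives of which 8 lost the call) and 9 were not called, Icam2 among them (150.0 to 211 FPKM, difference -0.24 ± 0.11, adjusted p = 0.25). No gene of any of these lists was called between EfCtrl and ECtrl. The part of other cell types in the differences of the 37 genes was not tested.

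The 10 genes outside the list whose within-group pattern was most like the mean of the 37 were named by Pearson r over the 9 libraries. They were Neurl3 (0.96), Atp6v0d2 (0.95), Asah2 (0.94), Ehd4 (0.94), Pla2g7 (0.94), Kitl (0.94), Ccl7 (0.94), Msl2 (0.94), Clic6 (0.94) and Pde4dip (0.94). Atp6v0d2, a proton pump subunit of macrophages and osteoclasts, was 1.08, 6.83 and 3.26 FPKM in ECtrl, 6.36, 11.3 and 5.58 in EfCtrl and 7.45, 7.67 and 11.2 in E3KO. Pla2g7, the secreted phospholipase that degrades platelet-activating factor, was 1.39, 5.17 and 6.32 FPKM in ECtrl, 4.93, 11.2 and 4.40 in EfCtrl and 8.72, 9.07 and 11.7 in E3KO. Both ran from a low in ECtrl replicate 1 to highs in EfCtrl replicate 2 and E3KO replicate 3. Taken singly, these extremes within a group were shared by 32, 33 and 21 of the 37 genes, and fewer had all of them. Ccl7, a chemokine that attracts monocytes, was 5.28, 15.5 and 9.59 FPKM in ECtrl, 11.1, 14.5 and 5.55 in EfCtrl and 28.3, 35.6 and 43.5 in E3KO, and its 3 E3KO libraries were above all controls (difference 1.79 ± 0.35, SE, adjusted p = 0.032, limma, 0.0231 to 0.115 over 16 alternatives of which 10 lost the call). Kitl, which encodes stem cell factor, shared the order of libraries within groups but was not higher in E3KO (2.99, 8.70 and 6.84 FPKM in ECtrl, 4.76, 7.77 and 4.57 in EfCtrl and 2.89, 4.11 and 4.23 in E3KO). Ehd4 and Msl2, genes of membrane traffic and of chromatin, moved over narrow ranges of 83.2 to 102 and 11.2 to 13.8 FPKM.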

How the data were processed

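RNA-seq was carried out on 9 libraries of primary MLEC, 3 each of ECtrl, EfCtrl and E3KO, grouped by their genotype labels. The authors aligned paired reads to mm10 with TopHat2 and Bowtie, estimated FPKM with Cufflinks (1.0.3 in the submitters' processing notes), merged transcript models with Cuffmerge and compared groups with Cuffdiff. The deposited FPKM values of single libraries, from 3 tables, were used. Columns with the authors' fold changes, test statistics, p-values and q-values were not used. Library values are listed by symbol, so 3749 loci that share a symbol were left out. 2 loci held no FPKM.

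Genes with a group mean of at least 2 FPKM were fitted with limma 3.58.1 (R 4.3.3) on log2(FPKM + 1) with 3 groups, default moderation and Benjamini-Hochberg adjustment at 0.05, over 10605 genes. The fit was tested on simulated data. Libraries are separate isolations. Depth could not be recovered from FPKM, so the precision of a level rests on the spread of 3 libraries. Promoter windows came from RefSeq and loci from the files (mm10). Other work used Python 3.11.15, numpy 2.4.6, pandas 2.3.3 and matplotlib 3.10.9.

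The genes, their roles and the cell type lists (14 lists, 169 genes, 167 matched, 5 by synonym and 5 as part of a merged locus) were chosen with earlier results of these data known. Values per library are given for the 2 most abundant genes of each role, for the Fc receptor, chemokine and complement families and for the targeted genes; each list is given by its counts, up to 3 of its most abundant genes and any called gene, and the 10 closest genes outside the list are named. Cd52, Aif1, Clec4d, Clec4n, Mrc1, Coro1a, Ptprc, Msr1, Emr1, Mmp12, Tlr7, Chil3, Itgax, Plet1, Apoe, Atp6v0d2, Pla2g7 and Stab2 are described further after their values were seen. The alternatives were another pseudocount, no filter, libraries centred on their median, a mean-variance trend, the replicate number as a block, each control alone, and each library left out.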

Additional observations from a re-analysis of the deposited data

How the results depend on the processing

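The median difference of the 37 macrophage and leukocyte genes stayed above 0 in both comparisons under every alternative that was run. For E3KO minus the controls it was 0.44, and it moved to 0.83 with log2(FPKM + 0.1), to 0.85 over only the genes with a group mean of at least 2 FPKM and to 0.98 against ECtrl alone. For EfCtrl minus ECtrl it was 0.53 and moved to 1.11 with log2(FPKM + 0.1). Leaving out each library gave 0.41 to 0.71 and 0.37 to 0.71. The number of the genes called in E3KO was 2, and it was 1 with log2(FPKM + 0.1), 1 with no filter on low values, 0 against EfCtrl alone and 0 to 2 with a library left out. Of all genes, 509 were called, 239 against ECtrl alone, 101 against EfCtrl alone and 9 to 408 with a library left out, the lowest being without E3KO replicate 3. It was 101 without EfCtrl replicate 3, 149 without EfCtrl replicate 1, 237 without EfCtrl replicate 2, 289 without E3KO replicate 2 and 337 without ECtrl replicate 1. Between EfCtrl and ECtrl, 0 genes were called, and 0 to 4 with a library left out, of the 37 genes 0 in each. The median within-group r was 0.68 and ran from 0.60 without ECtrl replicate 1 to 0.86 without the library labelled E3KO replicate 1. The count of 7 genes with every E3KO library above every control became 11 without that library, an alternative chosen after seeing the data. The cause of these changes was not tested. Of 128 values of single genes under the alternatives, 59 kept their side of the threshold and 69 lost the call, and 0 changed direction.

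Libraries with the same replicate number did not deviate together. The correlation of their deviations from the group means ran from -0.04 to 0.123 over 9 pairs, with 2 above 0.1, and the numbers were not taken as pairs. With the replicate block, 202 of all genes and 0 of the 37 were called in E3KO, and 0 between the controls. FPKM carry no counts, so for genes near 0, such as Ptprc, Fcgr2b, Ccl3 and Ccl4, the depth behind a value is unknown.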
